A study of Drosophila melanogaster with 3 samples.

Results

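Divergent promoters are the short stretches of DNA from which a pair of neighbouring genes is transcribed in opposite directions. A divergent pair was taken as a minus-strand and a plus-strand transcription start site (TSS) of 2 different protein-coding genes, with the minus-strand TSS at the lower coordinate and the TSSs at most 1000 bp apart. Its members here were the peaks of Lpt-GFP whose summit, the base of highest signal, lay between the TSSs or at most 500 bp outside either. Of 6110 peaks in the list that the authors had thresholded on the irreproducible discovery rate (IDR, a measure of how well the ranks of peaks repeat from one replicate to the next), 614 met this rule, or 10.05% (exact 95% interval 9.31 to 10.8). They stood at 638 of the 2667 divergent gene pairs in the annotation (23.9%). Of the 614 peaks, 45 belonged to more than 1 gene pair, and 45 pairs held 2 IDR summits, so pairs and peaks are not independent of each other.

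The data came from white prepupae of Drosophila melanogaster, the stage at which the larva stops and metamorphosis begins. The animals were of a transgenic line with Lpt fused at its C terminus to GFP, whole animals of both sexes were pooled, and the fusion protein was precipitated with an antibody against GFP from chromatin sheared by sonication. All 3 libraries were biological replicates of this 1 group. No untagged or input control was analysed here, so enrichment at open promoters without Lpt-GFP was not measured, and whole animals do not show in which tissue a site was bound. Peaks and background regions numbered 30000, 30000 and 27893 in the lists of replicates 1, 2 and 3. Their depth in reads is unknown, and their signal was on different scales, with a median of 18.5, 25.02 and 16.7 over each list in the same order.

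Lpt (Lost PHDs of trr) carries the PHD finger part of a protein that mammals hold in a single polypeptide with the methyltransferase, and it works in the complex of the methyltransferase Trr. This COMPASS-like complex is known for monomethylation of histone H3 at lysine 4, a mark of enhancers, and Trr is a coactivator of the ecdysone receptor. Divergent promoters are common in the compact Drosophila genome and often belong to housekeeping genes. Both start sites then share 1 nucleosome-poor region, and a protein that sits there is upstream of both genes.

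The regions between the TSSs of strong members are printed to show how little sequence such a pair shares and where in it the summit fell. They are the 8 strongest members that met 3 conditions: a summit between the TSSs, at most 300 bases from one TSS to the other, and a place on an arm from which sequence is printed here. Each runs from the minus-strand TSS to the plus-strand TSS on the plus strand of the RefSeq release 6 genome (dm6). Capitals mark the up to 21 bases centred on the summit.
Art3/mRpS10 (chr3R:15229408-15229665): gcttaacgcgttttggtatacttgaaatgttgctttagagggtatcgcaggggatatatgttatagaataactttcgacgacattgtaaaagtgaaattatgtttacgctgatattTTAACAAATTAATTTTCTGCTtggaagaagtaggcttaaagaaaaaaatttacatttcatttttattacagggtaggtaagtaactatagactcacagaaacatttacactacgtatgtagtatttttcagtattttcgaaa
Tcs5/CHMP2B (chr3L:5139395-5139619): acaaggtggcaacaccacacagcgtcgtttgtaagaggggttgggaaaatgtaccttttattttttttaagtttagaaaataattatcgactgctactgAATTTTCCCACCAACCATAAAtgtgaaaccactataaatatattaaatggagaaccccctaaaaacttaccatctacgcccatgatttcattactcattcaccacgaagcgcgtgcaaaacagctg
CG13390/CG17294 (chr2L:8376797-8377035): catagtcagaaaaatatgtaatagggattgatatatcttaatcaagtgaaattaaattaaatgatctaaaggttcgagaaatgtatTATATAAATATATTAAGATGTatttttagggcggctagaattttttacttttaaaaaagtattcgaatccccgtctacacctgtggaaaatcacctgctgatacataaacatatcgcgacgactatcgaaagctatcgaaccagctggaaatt
Mnat9/CG1792 (chr3R:31616160-31616303): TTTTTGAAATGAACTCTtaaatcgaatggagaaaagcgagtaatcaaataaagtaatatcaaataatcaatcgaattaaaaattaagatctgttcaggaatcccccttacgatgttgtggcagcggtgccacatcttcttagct
fws/Lamtor3 (chr2L:17481029-17481231): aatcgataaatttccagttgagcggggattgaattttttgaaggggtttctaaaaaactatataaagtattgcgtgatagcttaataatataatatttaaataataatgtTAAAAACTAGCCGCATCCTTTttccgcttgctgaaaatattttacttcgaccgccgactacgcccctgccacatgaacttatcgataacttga
Lon/PIG-F (chr3L:19612199-19612455): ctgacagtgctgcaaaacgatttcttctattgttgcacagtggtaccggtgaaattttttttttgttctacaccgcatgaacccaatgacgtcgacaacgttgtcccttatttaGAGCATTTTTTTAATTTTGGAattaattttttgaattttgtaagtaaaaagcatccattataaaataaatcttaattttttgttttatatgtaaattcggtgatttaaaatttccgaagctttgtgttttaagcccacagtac
Mkk4/SLIRP2 (chr3R:8650796-8651084): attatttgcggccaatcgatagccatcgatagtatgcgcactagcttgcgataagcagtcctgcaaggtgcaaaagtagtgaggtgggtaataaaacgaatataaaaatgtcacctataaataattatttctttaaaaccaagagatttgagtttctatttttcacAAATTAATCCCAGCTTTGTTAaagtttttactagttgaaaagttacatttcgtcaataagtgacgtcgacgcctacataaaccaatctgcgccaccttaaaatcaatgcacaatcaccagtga
CG3437/CG3552 (chr3L:9457669-9457912): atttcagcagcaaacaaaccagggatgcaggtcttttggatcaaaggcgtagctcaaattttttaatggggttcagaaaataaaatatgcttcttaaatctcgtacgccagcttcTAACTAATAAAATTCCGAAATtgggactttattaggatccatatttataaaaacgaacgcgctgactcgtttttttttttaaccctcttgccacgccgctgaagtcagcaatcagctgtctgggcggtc

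The 8 regions were 144 to 289 bases long and rich in A and T, with a GC content of 30.2% between Art3 and mRpS10, 31.0% between CG13390 and CG17294, and at most 40.2%, between CG3437 and CG3552. In 6 of them a script found the TATA-box word TATAAA on either strand, and in 5 the word CGATA, the core of the site of the insulator protein BEAF-32. None held the GAGA word GAGAG, and 1, between fws and Lamtor3, held the DNA replication-related element (DRE) TATCGATA. In the region of Mnat9 and CG1792 the summit lay 6 bp from the minus-strand TSS and no searched word was found. For comparison, 2 regions of like length are given from pairs where no replicate list held any summit. They were chosen as the pairs of over 200 and under 300 bp with a DRE whose length was nearest to 250 bp, and here capitals mark a DRE.
m-cup/Det (chr3R:17149412-17149667): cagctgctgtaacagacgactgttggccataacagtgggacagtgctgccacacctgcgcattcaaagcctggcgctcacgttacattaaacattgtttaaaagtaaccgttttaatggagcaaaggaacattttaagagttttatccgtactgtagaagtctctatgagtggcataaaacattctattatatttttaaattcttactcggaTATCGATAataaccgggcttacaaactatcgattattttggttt
SmB/KdelR (chr2L:10426627-10426887): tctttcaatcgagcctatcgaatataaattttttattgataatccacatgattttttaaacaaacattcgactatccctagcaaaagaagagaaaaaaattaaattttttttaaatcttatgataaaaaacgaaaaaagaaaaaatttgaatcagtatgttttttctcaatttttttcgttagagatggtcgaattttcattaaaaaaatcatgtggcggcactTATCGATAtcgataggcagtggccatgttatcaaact

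SmB encodes a core protein of spliceosomal particles, and KdelR the receptor that returns proteins to the endoplasmic reticulum. A match is a stretch of letters and not a site, and the shares of all promoters with each word are given further on.

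Divergent pairs were common in the annotation, and Lpt-GFP was at about 1 in 4 of them. Of 13945 coding genes on the 6 arms, 5052 (36.2%) stood in a divergent pair, and the median distance between the TSSs of a pair was 301 bp (quartiles 163 and 502 bp). An IDR summit lay at 23.9% of the pairs (exact 95% interval 22.3 to 25.6), which is the background against which any group of pairs is read. Among the 6110 strongest peaks of each replicate list, as many as the IDR list holds, the share of pairs with a summit was 24.9%, 22.0% and 26.5% in replicates 1, 2 and 3, or 24.5% ± 2.32 (SD, n = 3). The number of members among these peaks was 659, 560 and 700, so replicate 2 had the fewest and replicate 3 the most. Divergent promoters took 10.5% ± 1.18 of the strongest peaks (SD, n = 3).

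The share of pairs with a summit was highest where the TSSs were over 200 and up to 400 bp apart. It was 31.0% of 542 pairs at over 200 and up to 300 bp (exact 95% interval 27.1 to 35.1) and 32.5% of 400 pairs at over 300 and up to 400 bp (27.9 to 37.3). It was 18.6% at 100 bp or less, 19.6% at over 100 and up to 200 bp, 20.6% at over 400 and up to 500 bp, 21.3% at over 500 and up to 750 bp, and 18.0% beyond that. Both middle classes together held a summit at 298 of 942 pairs (31.6%), against 340 of 1725 other pairs (19.7%). In replicates 1, 2 and 3 the shares were 34.0%, 27.4% and 35.5% in the middle classes, against 19.9%, 19.0% and 21.7% at the other pairs. The middle classes stood above the others in each replicate, and the values of both did not overlap. The difference was 12.1 ± 3.19 percentage points (SD, n = 3; exact sign-flip permutation test over replicates, two-sided, p = 0.25, the smallest that 3 replicates allow). Both classes were joined after their values were seen.

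**Figure D1:**
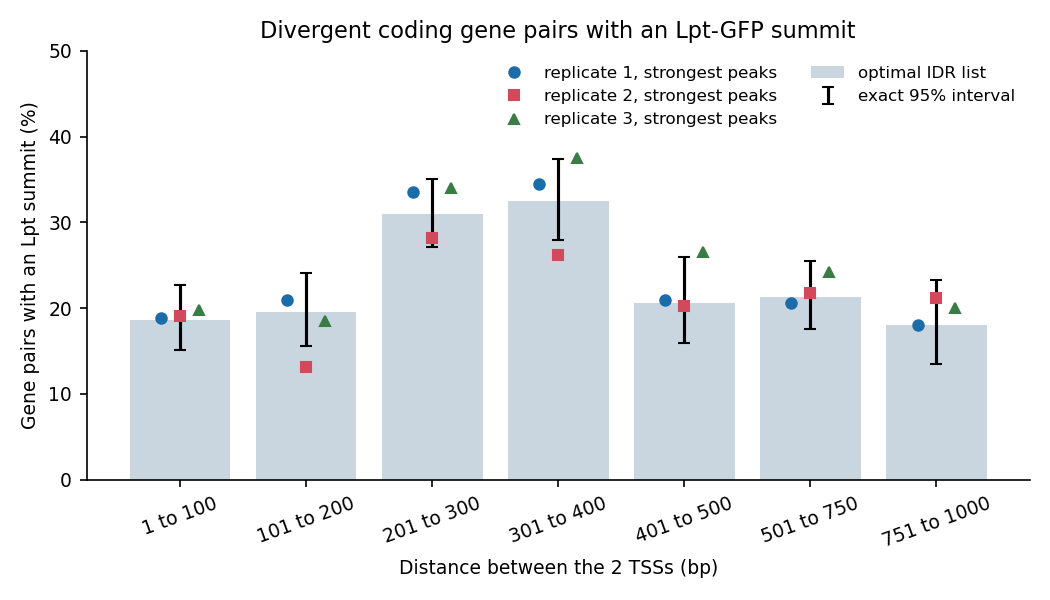
Share of divergent coding gene pairs with an Lpt-GFP summit (y axis, percent) by the distance between their TSSs (x axis, bp). Bars give the optimal IDR list with exact 95% intervals and points the strongest 6110 peaks of each replicate. The classes of over 200 and up to 400 bp stand at 31.0% and 32.5%, the other 5 between 18.0% and 21.3%.

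Pairs of the histone gene array were part of the shortest classes and held no summit. The replication-dependent histone genes lie in a tandem array of near-identical copies, and 42 pairs of this array, with TSSs 26 to 189 bp apart and 84 genes in all, passed the rule. No IDR summit and no summit among the strongest peaks of any replicate lay at any of them. Reads from near-identical copies can be lost or split, and how the authors treated them is not given in the sources used here. Without these genes 24.3% of 2625 pairs held an IDR summit. In the IDR list the middle classes then stood 11.4 percentage points above the other pairs, against 11.9 with these genes.

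Within the pairs, most summits lay between the TSSs. Measured against the closest TSSs whose window holds the summit, 386 of 614 summits (62.9%, exact 95% interval 58.9 to 66.7) lay between them. With 1 window per gene pair, at its closest TSSs, the stretches between TSSs made up 26.2% of the window length. Windows at other TSSs of the same genes were searched too and are not part of that length. The share among the strongest peaks was 61.8%, 54.1% and 72.0% in replicates 1, 2 and 3, or 62.6% ± 8.98 (SD, n = 3). Replicate 3 was highest and replicate 2 lowest. Many genes have several annotated TSSs, and 498 summits (81.1%) lay between some minus-strand and plus-strand TSS of the pair. The summits of the IDR list fell in intergenic DNA at 332 members (54.1%), in exons at 173 (28.2%) and in introns at 109 (17.8%). A first exon counts as an exon here, so a summit just downstream of a TSS is exonic.

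The share of summits between the TSSs is read beside the share of window length that lies there, which grows with the distance. The length is again that of the window at the closest TSSs of each gene pair. At 100 bp or less 1.27% of 79 summits lay between the TSSs, against 5.37% of the length, and at over 100 and up to 200 bp 37.5% of 56 did, against 12.7% of the length. At over 200 and up to 300 bp it was 86.6% of 157 summits, against 20.3% of the length, and at over 300 and up to 400 bp 81.3% of 112, against 25.7%. At over 400 and up to 500 bp it was 72.9% of 59 summits, against 30.9% of the length, and at over 500 and up to 750 bp 67.3% of 98, against 37.9%. Beyond that, 52.8% of 53 summits lay between the TSSs, close to the 46.5% of the length. For the 227 summits between TSSs over 200 and up to 400 bp apart, the median distance was 144 bp to the minus-strand TSS and 136 bp to the plus-strand TSS. Of these, 147 (64.8%) lay within 50 bp of the midpoint, which makes up 35.5% of the length. Where the TSSs were over 600 bp apart, 53 summits lay between them, at a median of 146 bp to the nearer TSS and 593 bp to the farther. Of these 53, 7 lay within 50 bp of the midpoint. The share of length within 50 bp of it was not taken for these wide pairs, so the count shows neither gathering at the midpoint nor avoidance of it. In all, 21 were nearer the minus-strand TSS and 32 the plus-strand TSS. Over all distances, a summit between the TSSs was 110 bp from the nearer one (quartiles 80.5 and 145 bp).

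**Figure D2:**
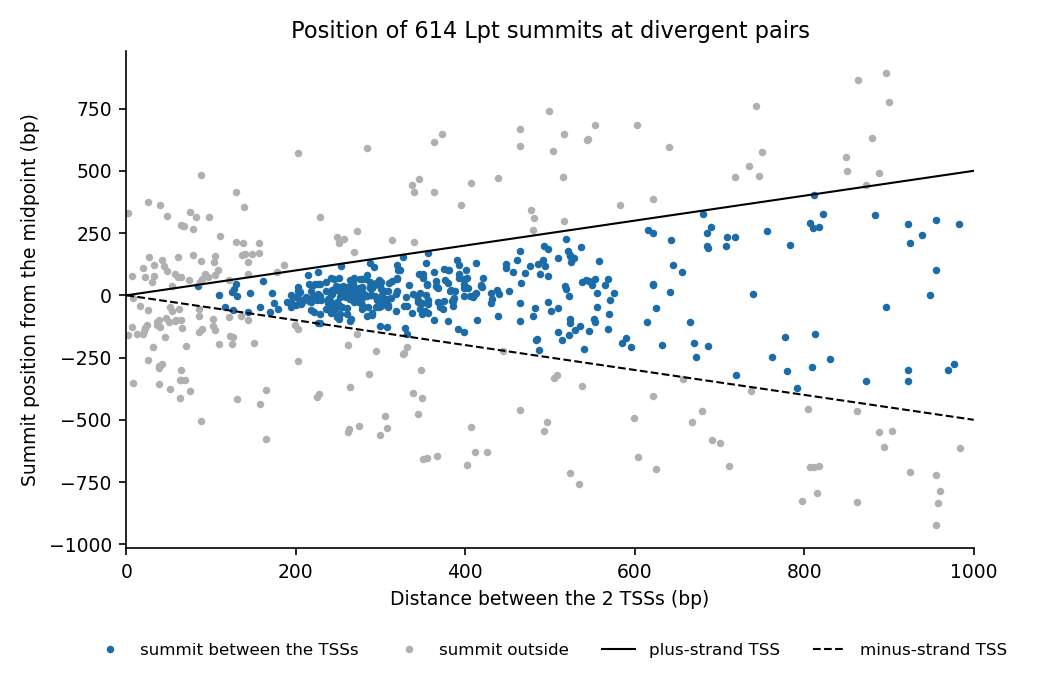
Position of each of 614 summits from the midpoint between its closest TSSs (y axis, bp, positive towards the plus-strand gene) against the distance between these TSSs (x axis, bp). The lines are the TSSs, blue points the 386 summits between them and grey points the 228 outside. Between TSSs of over 200 and up to 400 bp the summits gather at the midpoint. Beyond 600 bp 7 of the 53 summits between the TSSs lie within 50 bp of it, a count without a share of length beside it.

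Summits outside the TSSs were found at close and wide pairs, with 113 of 228 at TSSs 200 bp or less apart and 57 at over 500 bp. Their share of the summits differed by distance. It was highest at 100 bp or less, where 1.27% of 79 summits lay between the TSSs. It was lowest at over 200 and up to 300 bp, where 86.6% of 157 did. The 228 summits lay at a median of 144.5 bp from the nearer TSS, 126 of them in the direction of the minus-strand gene and 102 in that of the plus-strand gene. The median distance between the TSSs was 340.5 bp for summits between them and 202 bp for summits outside. The median signal of summits between was 59.9, 71.3 and 66.9 in replicates 1, 2 and 3, against 57.4, 81.7 and 52.3 for summits outside. The ratio was 1.04, 0.874 and 1.28, and it was below 1 in replicate 2 alone (1.07 ± 0.204, SD, n = 3; exact sign-flip permutation test on the log2 ratios, two-sided, p = 0.75). Position and signal thus showed no difference beyond the spread between replicates. At single promoters, meaning IDR peaks within 500 bp of a coding TSS that were no members, the summit had a median offset of -149.5 bp from the TSS, where negative values are upstream, and 74.0% of 1418 summits lay upstream.

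Divergent TSSs had a summit nearby more often than single TSSs, but 1 summit could serve both genes of a pair. An IDR summit lay within 250 bp of 1009 of 6036 divergent TSSs (16.7%), against 1055 of 13216 single TSSs (7.98%), those with no divergent partner, and 10.7% of all coding TSSs. The shares were 17.6%, 14.1% and 19.0% at divergent TSSs in replicates 1, 2 and 3, against 7.83%, 9.19% and 6.20% at single TSSs. Divergent TSSs were higher in 3 of 3 replicates, with no overlap, by 9.16 ± 3.95 percentage points (SD, n = 3; exact sign-flip permutation test, two-sided, p = 0.25, the smallest possible). When each summit was counted for its nearest TSS only, a count added after the data were seen, the shares were 9.01% at divergent TSSs and 7.09% at single TSSs. In replicates 1, 2 and 3 they were then 9.68%, 7.89% and 10.4% at divergent TSSs, against 7.03%, 8.29% and 5.52% at single TSSs. The difference was 2.37 ± 2.64 percentage points (SD, n = 3; exact sign-flip permutation test, two-sided, p = 0.50) and was negative in replicate 2. With no summit counted for more than 1 TSS, the mean difference was thus 2.37 in place of 9.16 percentage points.

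**Figure D3:**
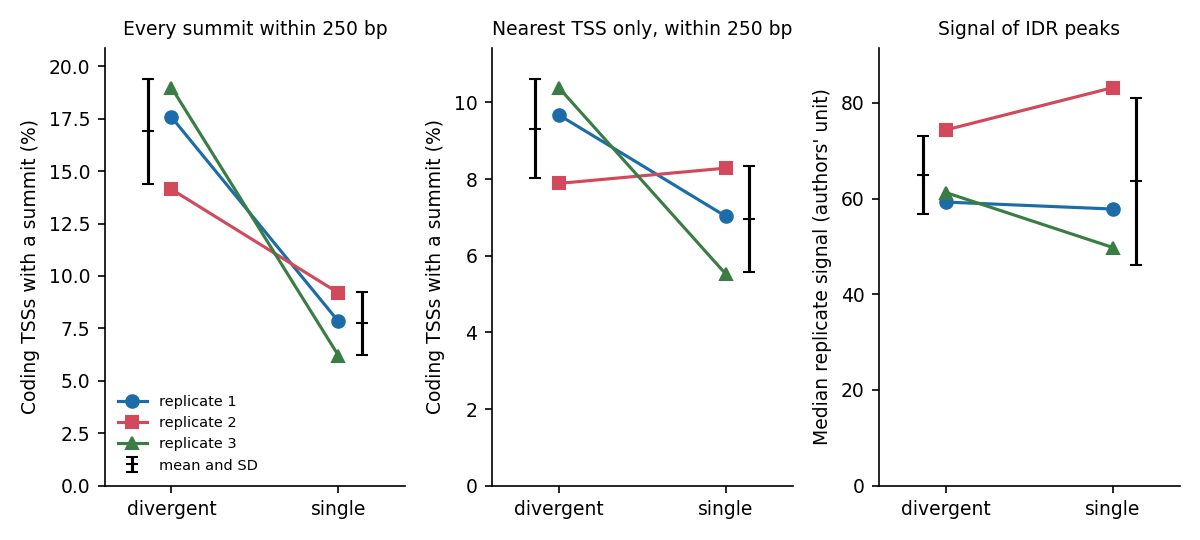
Divergent and single coding promoters in the 3 replicates: TSSs with a summit within 250 bp (left, percent), the same with each summit counted for its nearest TSS only (middle, percent), and the median signal of IDR peaks (right, authors' unit). Coloured symbols are replicates, black bars the mean and SD (n = 3). All 3 lines slope down on the left, while the line of replicate 2 slopes up in the other panels.

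The signal of members was close to that of single promoters. The median was 59.3, 74.4 and 61.3 at divergent promoters in replicates 1, 2 and 3, against 57.8, 83.2 and 49.8 at single promoters. The ratio was 1.03 in replicate 1, 0.894 in replicate 2 and 1.23 in replicate 3, so the replicates differed in direction (1.05 ± 0.170, SD, n = 3; exact sign-flip permutation test on the log2 ratios, two-sided, p = 0.75). In the pooled IDR list the median signal was 181 at members (quartiles 138 and 284), 174 at single promoters and 167 at the 4078 other peaks. Of the members, 87 (14.2%) were among the 611 strongest IDR peaks, against 13.5% of single-promoter peaks. Of the 50 strongest IDR peaks 12 were members, beside 10.05% of all IDR peaks, and the single-promoter peaks among these 50 were not counted. The difference between divergent and single promoters in signal was within the spread between replicates.

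The IDR list was selected for agreement between these same replicates, so overlap of its peaks with the replicate lists is raised by construction. Of the 614 members, 386 (62.9%) overlapped one of the strongest peaks of all 3 replicates, against 61.1% of single-promoter peaks and 63.5% of all IDR peaks. The share of members was near that of all IDR peaks. Another 152 members were strong in 2 replicates, 72 in 1 and 4 in none. In replicate 1 every member overlapped a listed peak, while 21 members had none in replicate 2 and 29 had none in replicate 3. The median shift between the IDR summit and the summit of the replicate peak was 18.5, 14 and 23 bp in replicates 1, 2 and 3. Strong peaks of replicate 1 covered 88.1% of members and 87.2% of single-promoter peaks. In replicate 2 the values were 76.9% of members and 88.3% of single-promoter peaks, and in replicate 3 they were 84.9% of members and 74.3% of single-promoter peaks. Across the members, which share libraries and were selected in these same lists, the rank correlation of signal (Spearman's rho, a description) reached 0.783 for replicate 1 with either of the others and 0.662 for the other two.

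The strongest member lay between Ugalt, a transporter of UDP-galactose, and eIF2Bbeta, a subunit of the translation initiation factor eIF2B, and was the IDR peak of rank 2. Its signal was 583, 735 and 598 in replicates 1, 2 and 3, and its summit stood 39 bp from the TSS of Ugalt and 680 bp from that of eIF2Bbeta (X, 2703708 to 2704066 in dm6). The peak at PNPase, the mitochondrial polynucleotide phosphorylase, and Gprk2, a kinase of G protein-coupled receptors, had 492, 653 and 495, with the summit in an exon 80 bp downstream of the TSS of PNPase. At Chro, a chromodomain protein of polytene interbands, and Ssl1, a subunit of the general factor TFIIH, the signal was 462, 507 and 426. The summit lay 88 bp inside Chro. These 3 peaks were above 400 in every replicate. The highest unscaled value at each was in replicate 2, whose list also had the highest median signal.

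Mitochondrial ribosomal proteins held 3 of the next places. The peak between mRpL41 and CG8079 had a signal of 425, 450 and 513 in replicates 1, 2 and 3, and that between the arginine methyltransferase gene Art3 and mRpS10 had 423, 455 and 456. The peak between mRpS23 and CenG1A, an Arf GTPase-activating protein, had 435, 535 and 353. In unscaled signal the SD was smaller at mRpS10 (445 ± 18.8, SD, n = 3) than at mRpS23 (441 ± 91.5). These SDs include the differences of scale between the lists, so they do not show which peak repeated better. The peak at Tcs5, a subunit of the KEOPS complex that modifies transfer RNA, and CHMP2B, a subunit of the membrane-remodelling ESCRT-III complex, had 421, 445 and 466.

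The other members of the strongest 15 stood at Pex11ab and CG8320 (peroxisome division), Fbw5 and CG9147 (an F-box protein), CG5611 and Mtl, CG13390 and CG17294, tank and CG12194, Mnat9 and CG1792, Pdrg1 and Pal1, and CG11309 and CG7632. The roles given are those of Pex11ab and Fbw5. Their mean signal over replicates ran between 296 and 370. In unscaled signal the last pair had the largest SD, with 242, 457 and 189 in replicates 1, 2 and 3 (296 ± 142, SD, n = 3). Differences of scale between the lists are part of that SD. All 15 overlapped one of the strongest peaks of each replicate. Of the 15 summits, 9 lay between the TSSs and 6 outside.

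**Figure D4:**
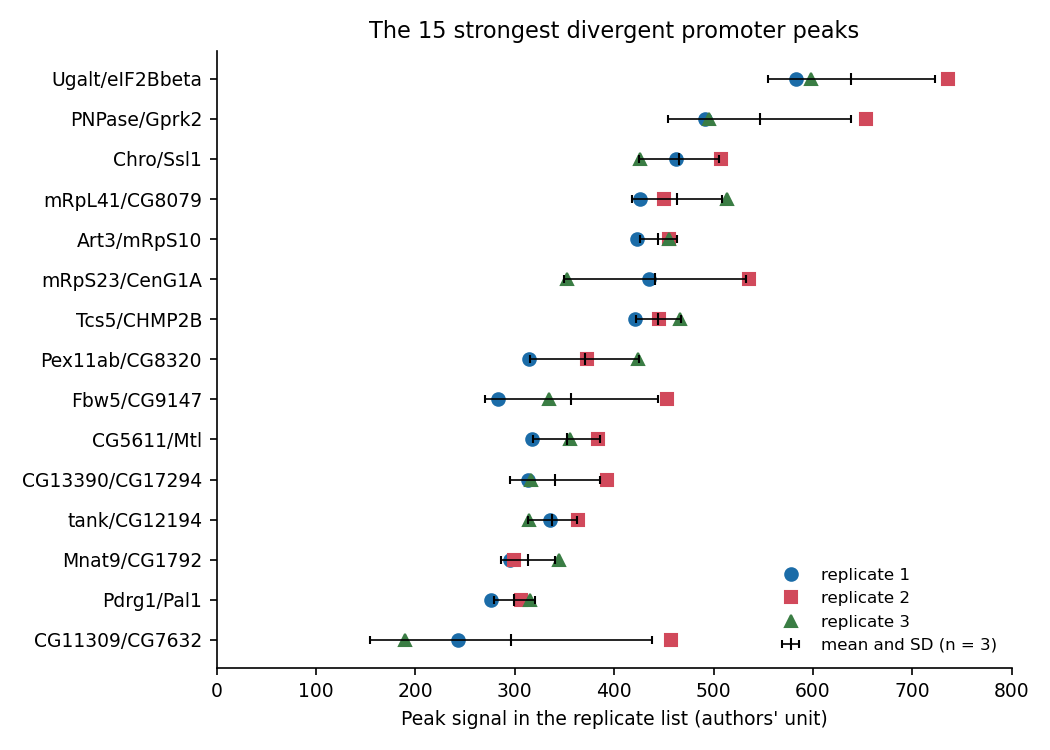
Signal of the 15 strongest divergent promoter peaks in each replicate list (x axis, authors' unit), ordered by signal in the IDR list. Symbols are replicates, black bars the mean and SD (n = 3). Ugalt/eIF2Bbeta stands highest in every replicate, and CG11309/CG7632 has the widest spread of unscaled signal.

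Members differed in how far the replicates agreed. To compare the lists, each signal was divided by the median over all IDR peaks in that replicate (56.2, 78.3 and 49.7), and the coefficient of variation (CV) was taken for the 329 members that were among the stronger 50% of IDR peaks and had a value in every replicate. The median CV was 0.230, and the scaled signal was highest in replicate 3 at 224 members, in replicate 1 at 65 and in replicate 2 at 40. The same count over all IDR peaks or single-promoter peaks is not given here. These counts are thus not shown to be particular to divergent promoters. The largest CV was at ERR, the estrogen-related receptor, and Atg18a, an autophagy gene, with scaled values of 1.44, 0.482 and 2.49 in replicates 1, 2 and 3. TppII, a tripeptidyl peptidase, and ND-MWFE, a subunit of respiratory complex I, had 1.38, 0.850 and 2.96. Cht2, a chitinase, and CG8001 had the opposite order, with 1.146, 1.79 and 0.387. The smallest CV was 0.0139, at CG8229 and Tom7, a gene of mitochondrial protein import, where the values were 1.48, 1.44 and 1.47. Gk1 and CG13876, and Ripalpha and RpL7, followed with a CV of 0.0208 and 0.0213.

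Pairs at the edges of the rule show what it kept and left out. The widest pair with a summit was Smg5, a factor of nonsense-mediated decay, and Ance, a peptidase related to angiotensin-converting enzyme, with 984 bp between the TSSs and 81.9, 52.7 and 69.3 in replicates 1, 2 and 3. ND-75, a subunit of complex I, and CG1632 followed with 983 bp and 98.2, 123.3 and 71.2. Just beyond the limit, nero and CG1910 stood 1001 bp apart with 58.6, 133 and 26.1, and Eno, the glycolytic enolase, and Rrp40 stood 1015 bp apart with 170, 209 and 136. In the other direction, the closest pairs with a summit were CG11710 and mal, and dpa (Mcm4) and didum (a class V myosin), both 2 bp apart. Their summits lay 330 and 160 bp from the nearer TSS. On the flank, the summit at Pgk, phosphoglycerate kinase, and Bacc was 496 bp outside and kept, while that at Pp2C1 and ctp was 511 bp outside and left out, with a signal of 146, 185 and 64.9 at Pgk and 86.9, 148 and 64.3 at Pp2C1.

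Pairs with 2 summits were few. The strongest was Mef2, the muscle transcription factor, and Pal1, an amidating enzyme of peptides, whose strong peak (276, 306 and 316 in replicates 1, 2 and 3) is also the peak of Pdrg1 and Pal1, and whose second peak had 52.1, 44.05 and 13.8. Pax, the adaptor protein paxillin, formed a pair with both Alp12 and CG13085 over the same pair of peaks, at 227.6, 325 and 225 in the replicates. These 2 IDR peaks overlapped the same replicate peak, so the values are 1 measurement given for both.

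The arms differed in the share of pairs with a summit. It was 30.3% of 518 pairs on 3L (exact 95% interval 26.4 to 34.5) and 27.1% of 683 on 3R (23.8 to 30.6). It was 21.4% of 509 on 2L, 19.9% of 543 on 2R and 19.6% of 403 on X. In replicates 1, 2 and 3 the share on 3L was 31.7%, 26.1% and 31.5%, above that of every other arm each time. None of the 11 pairs on chromosome 4 held an IDR summit, with an exact 95% upper bound of 28.5%. A pool of animals of both sexes holds fewer copies of X than of the autosomes, and values were not corrected for that.

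Gene groups differed in how often their divergent promoters held a summit, and each count is read against the 23.7% of all 5052 genes in divergent pairs. Genes of mitochondrial ribosomal proteins stood in divergent pairs at 59 of 75, and 23 of the 59 had a summit (39.0%). Their median strongest signal was 160 in the IDR list, below the 188 of all divergent genes with a summit, so the 3 peaks named above are far from typical. Cytoplasmic ribosomal protein genes had a summit at 17 of 53 (32.1%, median signal 154), with RpL34b at 104, 108 and 118 and RpL32 at 102, 78.4 and 136 in replicates 1, 2 and 3. Autophagy genes had one at 6 of 16 (37.5%), led by Atg2, a lipid transfer protein, at 159, 158 and 163. Chromatin and insulator genes had one at 11 of 35 (31.4%), with a median signal of 387. Among them were Chro, brm, the ATPase of the SWI/SNF complexes, at 202, 208 and 222, and Gcn5, a histone acetyltransferase, at 154, 199 and 181. Translation initiation factors had one at 6 of 21 (28.6%), among them eIF2Bbeta and eIF4EHP, a repressive cap-binding protein, at 284, 317 and 296. Counts shrank where only IDR peaks strong in the 2 other replicates were kept, when 15.5%, 18.4% and 16.8% of all divergent genes had a summit without replicates 1, 2 and 3. Mitochondrial ribosomal proteins then counted 13, 18 and 12 of 59 without replicates 1, 2 and 3, and cytoplasmic ones 9, 11 and 9 of 53. Among the stronger 50% of IDR peaks, 14.1% of all divergent genes had a summit, against which cytoplasmic ribosomal proteins had 6 of 53 (11.3%) and mitochondrial ones 10 of 59 (16.9%). The higher share of the cytoplasmic list was thus not found among strong peaks. Autophagy genes had 5 of 16 there and chromatin and insulator genes 8 of 35.

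With all IDR peaks counted, other groups were close to or under the share of all divergent genes. Genes of oxidative phosphorylation had a summit at 10 of 47 (21.3%), RNA polymerase, general factor and Mediator genes at 12 of 56 (21.4%), aminoacyl-tRNA synthetases at 5 of 23 (21.7%), DNA replication genes at 5 of 23 (21.7%) and splicing factors at 7 of 34 (20.6%). In the list of kinetochore and mitotic kinase genes, which also held the mitotic regulator stg, it was 3 of 14. It was 3 of 17 among heat shock and chaperonin genes, 5 of 27 among detoxification enzymes and 2 of 18 among Rab GTPases. Proteasome genes had one at 3 of 26 (11.5%) and nucleoporins at 1 of 15 (6.67%). RPA1 and Mcm2, both of the replication machinery, share 1 divergent promoter, where the signal was 49.2, 93.4 and 109. PolD2, a subunit of DNA polymerase delta, had the strongest peak of the replication list at 185, 218 and 159. No summit was found at 13 cuticle protein genes, 37 chemoreceptor and odorant-binding protein genes or 84 histone genes in divergent pairs. The 1 gene of the Enhancer of split complex in a pair, E(spl)mdelta-HLH, a repressor downstream of Notch, had a summit at 115, 107 and 78.5. Many lists are short, and no group was tested. Without 1 replicate, 15.5% to 18.4% of all divergent genes had a summit, and the RNA polymerase list kept 12 of 56 each time. Other counts fell to as low as 1 for proteasome genes and 1 for the list with kinetochore genes. They fell to 3 for DNA replication genes, 1 for detoxification enzymes and 0 for Rab GTPases.

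The COMPASS family, the Polycomb group and the ecdysone response had 9, 9 and 4 genes in divergent pairs, so their counts are small. Of 15 genes of the COMPASS family 9 were in divergent pairs, and 1, Rbbp5, a core subunit that activates the methyltransferases, had a summit in the pair with eRF1. Its signal was low, at 30.2, 35.9 and 35.4 in replicates 1, 2 and 3, and it dropped out of the peaks kept without any 1 of the replicates. Of 9 Polycomb group genes in pairs, E(z), the methyltransferase of lysine 27 of histone H3, had one, at 54.4, 55.4 and 96.3. Of 31 ecdysone response genes 4 (12.9%) stood in a divergent pair, against 36.2% of all coding genes. The 1 with a summit was Hr3, a nuclear receptor induced by ecdysone, in the pair with Hdc. The TSSs of this pair were 640 bp apart, and the summit lay outside them, on the side of Hdc. The offset of the summit from the Hr3 TSS was -915 bp, where negative values are upstream. The signal was 57.1 and 83.4 in replicates 1 and 2, with no overlapping peak in the list of replicate 3. This peak was outside the peaks kept without replicate 1 or without replicate 2.

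Genes with a summit in their divergent promoter were longer than the others, with a median of 2672 bp for 1198 genes, against 2165 bp for 3854 genes of pairs without a summit. Of the genes with a summit 60.6% had a single annotated TSS position, against 70.8% in pairs without one. More TSSs per gene give more windows in which a summit can fall, and the part of this in the counts was not tested beyond the count with 1 TSS per gene.

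Members were poorer in G and C than single promoters. The median GC content of windows of 100 bp either side of the summit was 33.8% at members, against 39.3% at single-promoter summits and 33.8% in windows at the midpoints of the 2029 pairs without an IDR summit. All coding promoters, taken as windows centred 100 bp upstream of each TSS, had 38.8%. With TSSs over 200 and up to 400 bp apart, it was 32.8% at members and 30.1% at pairs without a summit. Among members it was 31.3% at the 150 strongest and 38.1% at the 150 weakest.

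A total of 10 words were searched on both strands of these windows. The GAGA word GAGAG, read by GAGA factor, was in 20.4% of members, against 38.9% of single-promoter summits and 25.3% of all coding promoters. Members stood above divergent pairs without a summit, where the word was in 14.0%. In replicates 1, 2 and 3 it was in 21.7%, 24.6% and 17.0% of divergent summits, against 42.3%, 45.1% and 30.4% of single-promoter summits. It was lower at divergent summits in each replicate, by 18.1 ± 4.07 percentage points (SD, n = 3), with no overlap. The TATA-box word TATAAA was in 41.5% of members, against 26.4% of single-promoter summits and 33.6% of all coding promoters. Its share was 42.5%, 36.3% and 44.4% at divergent summits in replicates 1, 2 and 3, against 25.9%, 22.5% and 33.4% at single-promoter summits, a difference of 13.8 ± 2.83 percentage points (SD, n = 3). Windows poorer in GC hold more words of A and T, and the part of composition in this difference was not tested.

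Words of housekeeping promoters were more frequent at members than at single-promoter summits and less frequent than at divergent pairs without a summit. The DRE TATCGATA was in 5.70% of members, against 1.41% of single-promoter summits, 9.71% of pairs without a summit and 6.21% of all coding promoters. The word GGTCACAC of core promoter motif 1 was in 2.93% of members, against 1.06%, 6.11% and 3.33% of the same 3 classes. The BEAF-32 word CGATA, which every DRE contains, was in 33.4% of members, against 23.4%, 43.2% and 36.6%. Over replicates the difference between divergent and single-promoter summits was 3.76 ± 1.38 percentage points for the DRE, 2.24 ± 0.821 for motif 1 and 9.56 ± 2.20 for CGATA (SD, n = 3), and positive in each replicate. Among the 150 strongest members 2.0% held a DRE, none motif 1 and 21.3% CGATA. Among the 150 weakest members these shares were 8.0%, 4.67% and 43.3%. Exact intervals of the strongest and weakest members overlapped for the DRE and for motif 1, but not for CGATA. Of these words, only CGATA was thus shown to be scarcer at the 150 strongest members than at the 150 weakest.

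The initiator word TCAGT was in 27.9% of members, against 35.5% of single-promoter summits, 32.3% of divergent pairs without a summit and 33.4% of all coding promoters. The E-box CAGCTG (11.6% of members and 9.94% of single-promoter summits), the Pho word GCCAT (23.5% and 23.8%), the Zelda word CAGGTA (3.42% and 3.74%) and the AP-1 word TGACTCA (1.95% and 1.41%) had intervals that overlapped between both classes. Windows at members are centred on a summit, which often lies between a pair of TSSs, while windows of all promoters have a fixed distance to a TSS, so shares also reflect where the window stands.

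**Figure D5:**
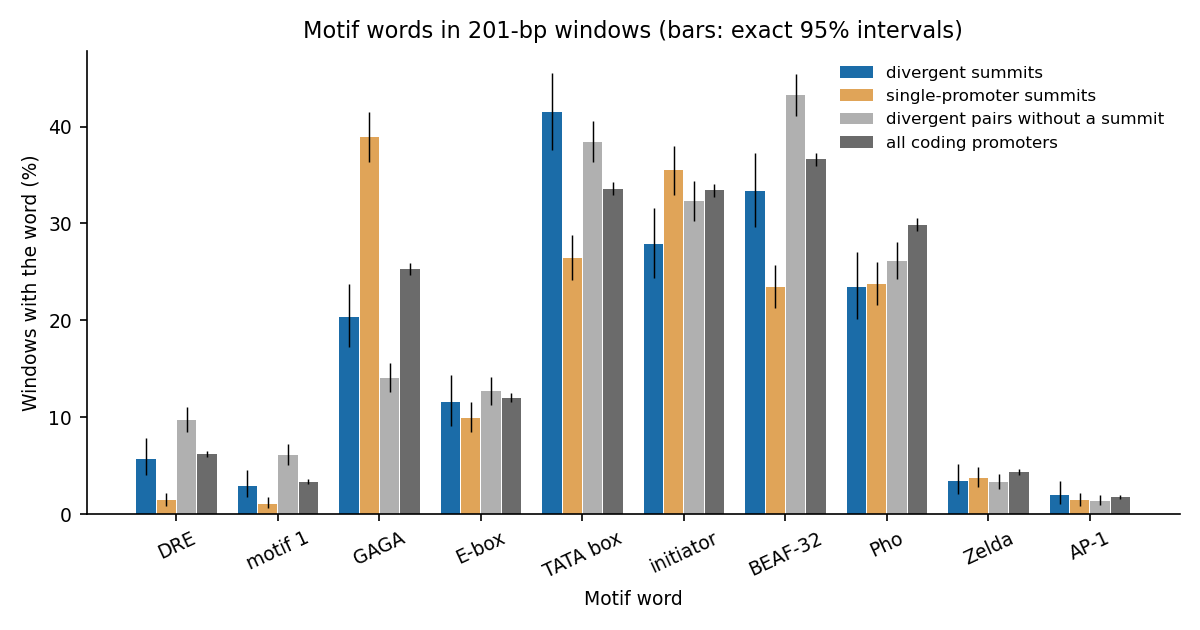
Share of windows of 100 bp either side that hold each word on either strand (y axis, percent) at divergent summits, single-promoter summits, midpoints of divergent pairs without a summit and all coding promoters. Error bars are exact 95% intervals, which cover counting error only. GAGA stands at 20.4% of divergent and 38.9% of single-promoter summits, and the TATA box at 41.5% and 26.4%. At divergent pairs without a summit they stand at 14.0% and 38.4%.

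Of the 2029 divergent pairs without an IDR summit, 1737 held no summit among the strongest peaks of any replicate. Such a summit was present in 1 replicate at 233 pairs, in 2 at 53 and in all 3 at 6. At 740 pairs no replicate list held a summit at all, background regions included. The highest mean signal without an IDR summit was at CG10077 and CG9948, with 75.5, 102 and 92.4 in replicates 1, 2 and 3, above the median of the members in each list. Zn72D, an RNA-binding zinc finger protein, and Taf4, a subunit of the general factor TFIID, had 71.3, 101.4 and 61.4. Atg4b, an autophagy protease, and Hibch had 67.7, 69.4 and 73.1. A pair without an IDR summit is not shown to lack Lpt-GFP.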

How the data were processed

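Peak lists in dm6 were used as the authors deposited them: an IDR-thresholded list, and 1 list of peaks and background regions for each of 3 replicates. The deposited signal is the authors' enrichment value of a peak within its list, and it was used to rank and describe peaks. The deposited notes derive each list from alignments and a further file that was not used here. Neither the caller of the peaks nor the aligner or IDR cut-off is given in the sources used here. TSSs of coding genes came from Ensembl release 115 (BDGP6, 6 arms), sequences from RefSeq. A replicate's value is its strongest peak that shares at least 1 base with the IDR peak, so differences of scale between lists enter every SD. Depth in reads is unknown, and exact (Clopper-Pearson) 95% intervals cover counting error only. Differences between 2 kinds of promoter were tested by exact sign-flip permutation over 3 replicates. With 5 such tests and a smallest p of 0.25, Benjamini-Hochberg adjusted p-values were 0.625 to 0.75.

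Members, the 23 gene lists and the 10 motifs were chosen with earlier results of these data known, and motif words and lists got no test. Named pairs were the 15 strongest, up to 3 per gene list, and the extremes of distance, rule limits and replicate variation. Rab3GAP1 was taken out of the Rab list, where a name pattern had caught it. Assignment of peaks was tested on simulated data. Alternatives left out each replicate and varied distances, peak sets and TSSs. Python 3.11.15 was used with pandas 2.3.3, numpy 2.4.6, matplotlib 3.10.9 and scipy 1.17.1. The dm3 lists were not used.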

Additional observations from a re-analysis of the deposited data

How the results depend on the processing

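With 1 group and no control, the values describe where peaks were listed, and their depth in reads is unknown. The share of divergent pairs with a summit was 19.9% with summits between the TSSs only, 14.5% in the stronger 50% of IDR peaks, and 15.8% to 18.7% without 1 replicate, since fewer peaks enter there. The share of IDR peaks at divergent pairs was 7.58% with TSSs at most 500 bp apart, 13.3% at 2000 bp, 8.15% between the TSSs only, 11.3% in the stronger 50% and 8.76% with 1 TSS per gene, and 9.42% to 10.8% without 1 replicate. The share of summits between the TSSs was 81.1% for any annotated TSS pair and 61.1% to 66.8% without 1 replicate. As a geometric mean over replicates, the signal ratio of divergent to single promoters was 1.04 in the main run. It reversed to 0.973 in the stronger 50%, and the cause was not tested. Leaving out a replicate gave 0.957 to 1.123, and 0.957 was without replicate 3 with all IDR peaks kept. In the IDR list the excess of TSS shares was 8.73 points in the main run and kept its sign in every alternative run. It was 1.92 points when each summit counted for its nearest TSS only, 2.36 at 100 bp, 11.4 with TSSs at most 500 bp apart, and 5.86 to 8.79 without 1 replicate. The excess of pairs over 200 and up to 400 bp apart, also in the IDR list, was 11.9 points in the main run. It was 8.04 points in the stronger 50% and 8.69 to 12.1 without 1 replicate. All 10 motif shares moved in windows of 50 bp either side, which are shorter, and 3 of 10 in the stronger 50%. Among the 23 gene lists, 5 to 9 counts moved by over 1.5 times without 1 replicate. Fewer peaks enter there, and the count over all divergent genes also fell. It was 1198 in the main run and 781, 928 and 849 without replicates 1, 2 and 3. No paired analysis was possible because all samples belong to 1 group, and the sign-flip tests compared kinds of promoter within each replicate.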

Other observations

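A word seen while the printed regions were read, CTACGCC, was counted on both strands after the data were seen, so its counts are a description. It stood in 3 of the 8 printed regions of strong members: those of Tcs5 and CHMP2B, fws and Lamtor3, and CG3437 and CG3552. In windows of 100 bp either side it was in 22 of 614 members (3.58%), against 25 of 1418 single-promoter summits (1.76%), 7 of 2029 midpoints of divergent pairs without an IDR summit (0.345%) and 176 of all coding promoters (0.914%). Among members it was in 14 of the 150 strongest (9.33%) and in 1 of the 150 weakest (0.667%). The word was picked from strong members, so its share there is raised by that choice.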
